A study of Homo sapiens with 9 samples.

Results

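Genes of the proteasome and of its assembly and transcriptional control were examined in the HT-29 cell line, which derives from a colon adenocarcinoma and grows as an epithelial sheet. They were taken by name: every row of the expression arrays whose single gene symbol is that of a proteasome subunit or proteasome assembly chaperone, or POMP, SEM1, ADRM1, UCHL5, NFE2L1 or DDI2, without antisense genes and pseudogenes, keeping the brightest row of each gene. The rule found 6 genes of the 14884 with a named row, on 7 rows: NFE2L1, POMP, ADRM1, SEM1 (2 rows), UCHL5 and PSMC3IP. The other 49 of the 55 genes written in the role lists, among them every core particle subunit, every regulatory particle ATPase and DDI2, were not analysed here, so the group holds regulators and outer parts of the machine and not its core. PSMC3IP entered by its symbol alone. Its protein is a partner of the recombinases in homologous chromosome pairing and no proteasome subunit, so counts are given with and without it.

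The 9 arrays form 3 groups of 3. Cells were given rosemary extract, a mixture of the plant's polyphenols, or carnosic acid, one phenolic diterpene found in rosemary, or served as untreated controls, which per the treatment protocol received the vehicle. All were harvested at 24 h. No label gives a concentration, so whether the doses were matched is unknown. The design text describes the replicates as biological without naming separate passages or days. Expression levels are log2 values normalized by RMA (robust multi-array average), which corrects background, aligns the distributions of the arrays and summarises the probes of a row.

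The proteasome is the protease that degrades proteins tagged with ubiquitin. Its barrel-shaped core particle cuts the substrate, and a regulatory particle on each end binds the ubiquitin chain, removes it and feeds the unfolded protein into the barrel. NFE2L1 encodes a transcription factor of the cap'n'collar (CNC) family that is held in the ER membrane, is itself degraded by the proteasome, and raises proteasome gene transcription when the proteasome falls short.

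The median level over all rows was 4.82 to 4.90 on the 9 arrays, and arrays of 1 group correlated at 0.992 to 0.995. Of 14884 genes the dimmest 25%, under a mean level of 4.50, were left out, and all 6 genes were among the 11163 tested. Of 10 colon epithelial markers 8 had a named row: EPCAM (11.09 to 11.39), KRT18 (12.02 to 12.64) and KRT20 (10.64 to 11.69) were high, while CDX1 (5.88 to 6.34) and CDX2 (5.43 to 5.90) were nearer the dim limit. KRT20 was called higher, and EPCAM, KRT18 and VIL1 lower, with each treatment, and KRT19 higher with carnosic acid. The log2 of the summed epithelial markers was 13.42 to 13.55 with rosemary extract, 13.62 to 13.64 with carnosic acid and 13.60 to 13.66 in untreated cells. Of 7 leukocyte markers 3 had a row, and their log2 sum was 12.42 to 12.46 with rosemary extract, 12.46 to 12.59 with carnosic acid and 12.46 to 12.55 in untreated cells. LYZ made up most of it (12.16 to 12.48) and was called lower with the extract, CD14 lay at 4.29 to 5.05, and CD68, a lysosomal protein, was called higher with the extract (1.89) and with carnosic acid (1.24). The fibroblast markers summed to between 6.94 and 7.41 and the endothelial ones to between 5.95 and 6.22 over all arrays, with DCN, LUM, PECAM1 and KDR under the dim limit on average and VIM, THY1 and VWF above it, and of VIM, THY1 and VWF 0 were called by limma with either treatment, also at an unadjusted p under 0.05. The part of these markers in the results was not tested, and in bulk RNA fewer expressing cells and less RNA per cell cannot be told apart.

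With rosemary extract NFE2L1, POMP and ADRM1 rose and UCHL5 and PSMC3IP fell, while SEM1 did not pass the test. By the limma fit to all 9 arrays, with an adjusted p under 0.05 as the threshold, 3 of the 6 genes were called higher, where 21.8% of all genes tested were, and 2 were called lower, where 16.3% were. Without PSMC3IP the counts were 3 higher and 1 lower of 5. The median change of the 6 was 0.22 on the log2 scale (0.22 without PSMC3IP), beside -0.018 over all genes. The genes therefore did not move in 1 direction, and the sizes ranged from -1.02 to 0.84.

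NFE2L1 had the largest rise of the group. Its level was 10.07, 10.17 and 10.10 on the rosemary extract arrays, 9.60, 9.59 and 9.59 on the carnosic acid arrays, and 9.30, 9.24 and 9.27 on the untreated arrays. Every extract array lay above every carnosic acid array, and every carnosic acid array above every untreated one. Its mean was 10.11 ± 0.050 with the extract against 9.27 ± 0.029 in untreated cells (SD, n = 3 each), a log2 change of 0.84 ± 0.047 (SE) or 1.79-fold (limma, adjusted p = 1.38e-07).

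POMP encodes the proteasome maturation protein, a chaperone that guides the assembly of the core particle and is the first protein the finished core destroys. It was at 11.91, 11.84 and 11.85 with rosemary extract, at 11.77, 11.82 and 11.75 with carnosic acid, and at 11.58, 11.56 and 11.73 in untreated cells. The 3 groups were in order without overlap, although the highest untreated array nearly met the lowest carnosic acid array. With the extract it rose by 0.24 ± 0.049 (log2, SE, limma adjusted p = 0.00192), 1.18-fold. A pseudogene of POMP is annotated, and signal from the gene and its copy cannot be told apart.

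ADRM1, a ubiquitin receptor of the regulatory particle that also docks UCHL5, was at 10.21, 10.30 and 10.28 with rosemary extract, at 10.21, 10.28 and 10.28 with carnosic acid, and at 9.97, 10.12 and 10.03 in untreated cells. All treated arrays lay above all untreated ones, and the treatments overlapped. Its log2 change with the extract was 0.22 ± 0.053 (SE, limma adjusted p = 0.00508), 1.17-fold.

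UCHL5, the deubiquitinase that ADRM1 recruits and that also belongs to the INO80 chromatin remodelling complex, went the other way. Its level was 6.99, 7.02 and 7.05 with rosemary extract, 7.14, 7.12 and 7.26 with carnosic acid, and 7.38, 7.32 and 7.54 in untreated cells. The groups did not overlap, with the extract arrays lowest. It fell by 0.39 ± 0.079 (log2, SE) with the extract (limma adjusted p = 0.00190), so ADRM1 and its docking partner differed in direction.

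SEM1 encodes a small acidic protein of the regulatory particle that also binds BRCA2. It was at 6.68, 6.81 and 6.50 with rosemary extract, at 6.50, 6.39 and 6.29 with carnosic acid, and at 6.50, 6.36 and 6.50 in untreated cells. The third extract array lay among the arrays of the other groups, and 4 of the 9 arrays held the same value. The log2 change with the extract was 0.21 (95% confidence interval -0.0055 to 0.42, limma adjusted p = 0.120), and without that array it was 0.29 (adjusted p = 0.0384). The dimmer SEM1 row averaged 4.32, below the dim limit, and differed by 0.15 without a test. SEM1 also has an annotated pseudogene.

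PSMC3IP had the largest change of any gene in the group. It was at 6.62, 6.53 and 6.62 with rosemary extract, at 7.36, 7.40 and 7.63 with carnosic acid, and at 7.54, 7.63 and 7.67 in untreated cells. The extract arrays stood apart from all others, and carnosic acid and untreated arrays overlapped. It fell by 1.02 ± 0.085 (log2, SE) with the extract (limma adjusted p = 2.32e-06).

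**Figure D1:**
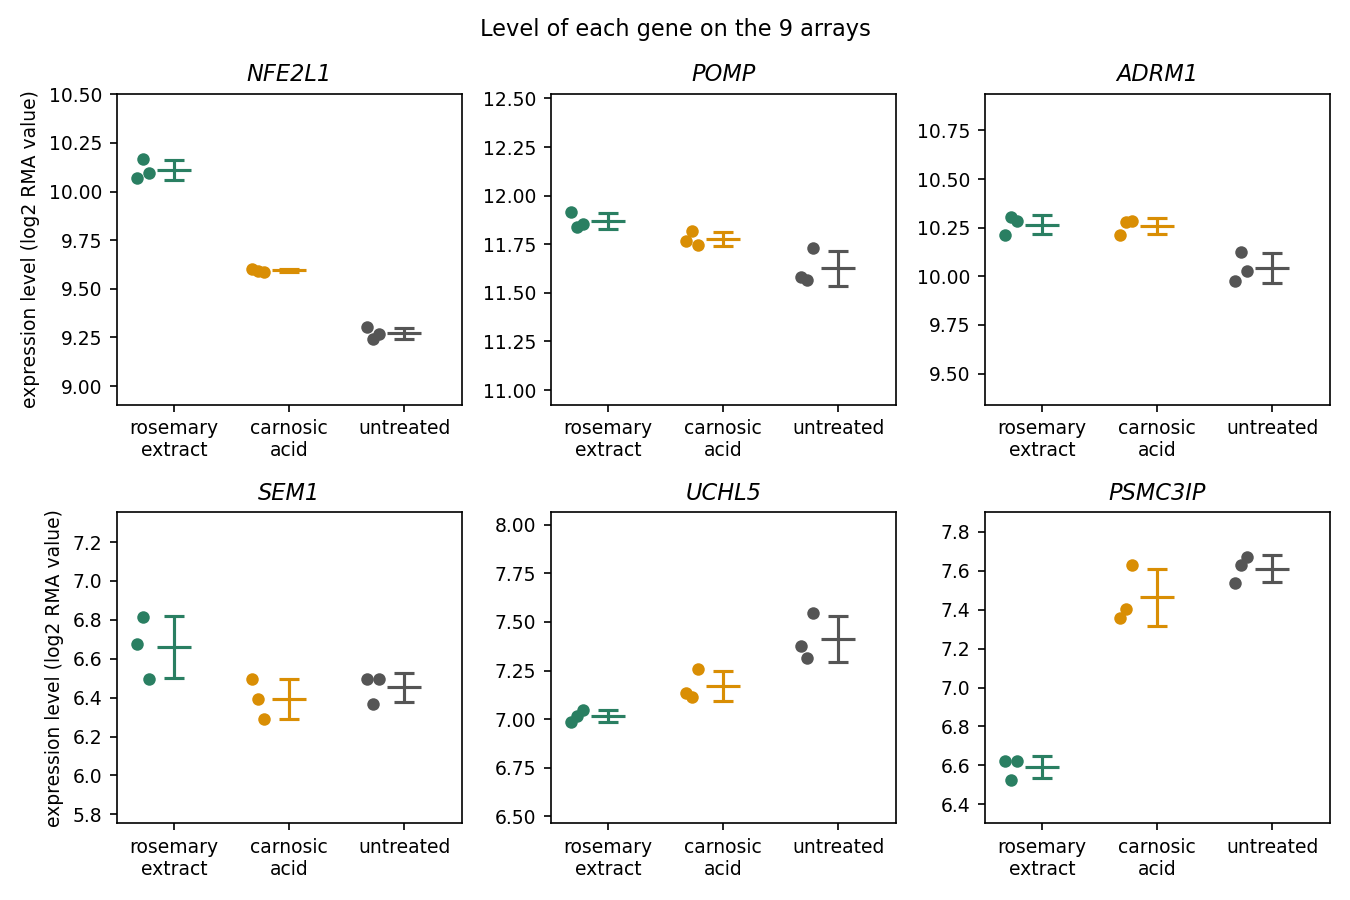
Level of each of the 6 genes on the 9 arrays (vertical axis, log2 RMA value, each panel spanning the same range). Points are single arrays, and the bar beside them gives the group mean with its SD (n = 3) for rosemary extract, carnosic acid and untreated cells. NFE2L1 stands at 3 separate levels, with means of 10.11 with the extract, 9.59 with carnosic acid and 9.27 in untreated cells, while PSMC3IP is low only on the extract arrays.

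Groups of 3 arrays that did not overlap were common in these data. The extract arrays lay apart from the untreated ones for 5 of the 6 genes, 3 above and 2 below, and 46.7% of all genes tested lay apart one way or the other.

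Promoter windows were read to show the DNA upstream of the genes that moved with the extract. CNC factors such as NFE2L1 bind, together with small MAF proteins, the antioxidant response element, whose core was searched as TGACNNNGC on both strands in RefSeq windows (build GRCh38.p14) that run from 250 bases before to 50 after a start site. All 6 genes matched a symbol there, with 13 windows. Of all 35116 windows 13.3% hold the core, and of all 27305 genes 16.1% hold it in at least 1 window. It occurs in 1 or more windows of ADRM1, SEM1 and UCHL5, which is 3 of the 6 genes. By window it occurs in 4 of the 13 (30.8%), and the share by gene depends on how many windows a gene has. The SEM1 match stands in the second listed window and not in the others. The first listed window is shown for the 3 genes that rose and for UCHL5, which fell. Whether the match bears on the direction of change was not tested. Capitals mark the match.
ADRM1 (chr20:62302646-62302945, + strand): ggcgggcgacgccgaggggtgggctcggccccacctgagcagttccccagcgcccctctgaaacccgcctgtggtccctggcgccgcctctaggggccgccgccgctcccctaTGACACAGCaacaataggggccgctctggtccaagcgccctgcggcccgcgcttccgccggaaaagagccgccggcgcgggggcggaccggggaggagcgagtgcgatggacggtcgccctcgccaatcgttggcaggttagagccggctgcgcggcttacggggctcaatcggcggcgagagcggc
UCHL5 (chr1:193059311-193059610, - strand): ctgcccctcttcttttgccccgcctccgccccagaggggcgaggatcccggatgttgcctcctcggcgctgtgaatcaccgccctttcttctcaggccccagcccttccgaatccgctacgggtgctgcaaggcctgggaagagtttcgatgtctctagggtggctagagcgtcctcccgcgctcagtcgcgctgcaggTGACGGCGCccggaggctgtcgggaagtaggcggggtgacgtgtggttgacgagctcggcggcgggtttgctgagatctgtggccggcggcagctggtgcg
POMP (chr13:28658880-28659179, + strand): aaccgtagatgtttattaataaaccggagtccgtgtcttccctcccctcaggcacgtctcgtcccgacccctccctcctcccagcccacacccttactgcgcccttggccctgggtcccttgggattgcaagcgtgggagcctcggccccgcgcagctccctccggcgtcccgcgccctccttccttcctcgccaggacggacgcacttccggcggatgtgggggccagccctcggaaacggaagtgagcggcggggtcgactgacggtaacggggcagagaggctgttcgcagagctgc
NFE2L1 (chr17:48048109-48048408, + strand): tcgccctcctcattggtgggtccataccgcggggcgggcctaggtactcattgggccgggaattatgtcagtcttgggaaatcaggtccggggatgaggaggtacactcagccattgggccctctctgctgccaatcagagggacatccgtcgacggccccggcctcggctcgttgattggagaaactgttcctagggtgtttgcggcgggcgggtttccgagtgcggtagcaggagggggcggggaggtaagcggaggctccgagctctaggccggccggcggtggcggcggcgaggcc
The match begins 137 bases before the start site in ADRM1 (position -137) and 51 before it in UCHL5 (position -51), on the strand of the gene in both. No match stands in the POMP window, in either NFE2L1 window or in either window of PSMC3IP, which also fell. The second ADRM1 window overlaps the first and holds the same match, and the other UCHL5 windows hold none. No other motif was searched, a match is a string of letters and no shown binding site, and the absence of one says only that these letters are not in the window.

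With carnosic acid NFE2L1 and ADRM1 rose, and the other 4 genes did not pass. The comparison shares its untreated arrays with the one above. The fit called 2 of the 6 genes higher, where 12.9% of all genes tested were, and 0 lower, where 6.12% were (limma, with 3 higher and 1 lower at an unadjusted p under 0.05). The 683 genes behind the second share were 367 without carnosic acid replicate 1. Without PSMC3IP the counts were 2 and 0 of 5. The median change of the 6 was 0.045 (0.15 without PSMC3IP), beside -0.011 over all genes.

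NFE2L1 averaged 9.59 ± 0.0084 with carnosic acid and 9.27 ± 0.029 in untreated cells (SD, n = 3 each), a log2 change of 0.32 ± 0.047 (SE) or 1.25-fold (limma adjusted p = 0.000680). It stayed called in every alternative fit run. ADRM1 rose by 0.22 ± 0.053 (log2, SE), 1.16-fold (adjusted p = 0.0138), a call lost without untreated replicate 1 (0.18, adjusted p = 0.0544).

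POMP and UCHL5 lay just outside the threshold with carnosic acid. The POMP change was 0.15 ± 0.049 (log2, SE, limma adjusted p = 0.0513) and that of UCHL5 was -0.24 ± 0.079 (adjusted p = 0.0534), and in each gene the treated arrays did not overlap the untreated ones. POMP passed without untreated replicate 3 (adjusted p = 0.00790), and UCHL5 passed without untreated replicate 2 (0.0444) or carnosic acid replicate 3 (0.0456). SEM1 changed by -0.060 (95% confidence interval -0.27 to 0.15, adjusted p = 0.720) and PSMC3IP by -0.15 (-0.33 to 0.039, adjusted p = 0.261). Carnosic acid arrays lay wholly above the untreated ones for 3 of the 6 genes and wholly below for 1, and 32.8% of all genes lay apart one way or the other.

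Set directly against each other, the treatments differed in NFE2L1 and PSMC3IP. The fit called 1 of the 6 genes higher with rosemary extract than with carnosic acid, where 8.24% of all genes were, and 1 lower, where 9.07% were. The 920 genes behind the first share were 551, 533 and 612 without rosemary extract replicate 1, rosemary extract replicate 2 and carnosic acid replicate 2. NFE2L1 averaged 10.11 with the extract and 9.59 with carnosic acid, a log2 difference of 0.52 ± 0.047 (SE, limma adjusted p = 1.73e-05). PSMC3IP averaged 6.59 ± 0.056 with the extract and 7.46 ± 0.15 with carnosic acid (SD, n = 3 each), a log2 difference of -0.87 ± 0.085 (SE, adjusted p = 2.88e-05). The median difference of the 6 was 0.050, beside 0.012 over all genes.

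For the other 4 genes a difference between the treatments was not established, and the intervals bound its size. The difference in ADRM1 was 0.0080 on the log2 scale (95% confidence interval -0.11 to 0.12, limma adjusted p = 0.952), with no stable sign across the alternative fits. That in POMP was 0.092 (-0.015 to 0.20, adjusted p = 0.258), that in UCHL5 -0.15 (-0.33 to 0.021, adjusted p = 0.247) and that in SEM1 0.27 (0.055 to 0.48, adjusted p = 0.0886). SEM1 passed without rosemary extract replicate 3 (0.35, adjusted p = 0.0318). Arrays of the treatments did not overlap for 4 of the 6 genes, 2 higher and 2 lower with the extract, and 31.8% of all genes did not overlap. With a mean level falling in the order extract, carnosic acid, untreated, neighbouring groups differed by the test at both steps only in NFE2L1. In POMP neither step passed, in ADRM1 only the step between carnosic acid and untreated did, and in UCHL5, in the opposite order, neither did.

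**Figure D2:**
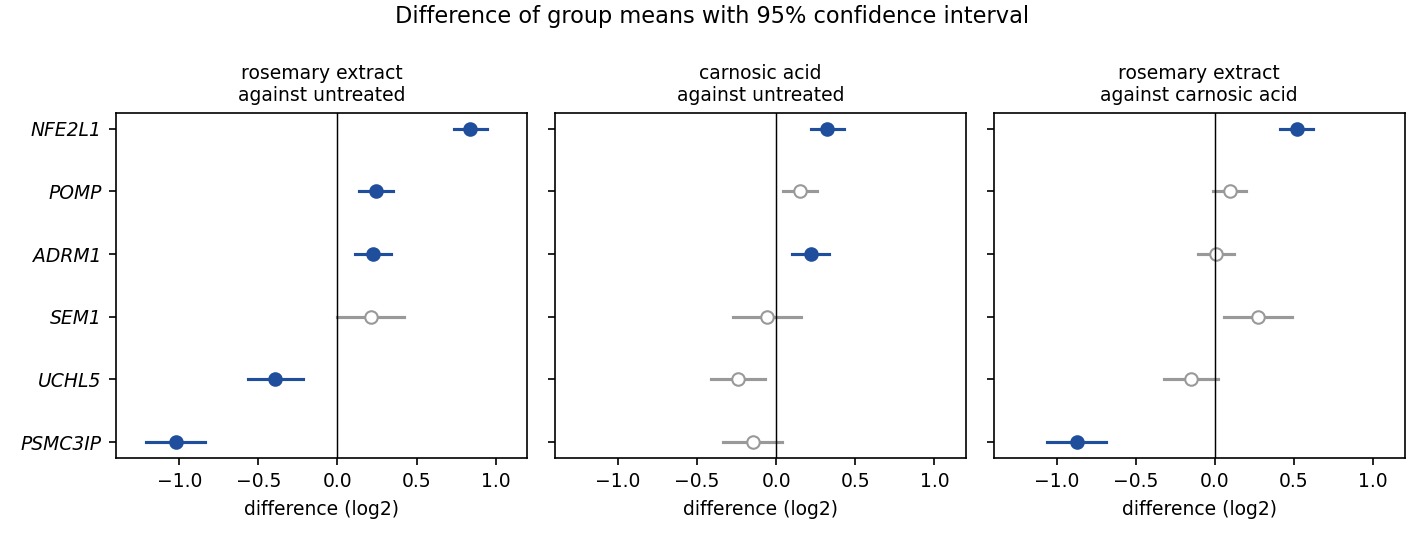
Difference of group means (horizontal axis, log2) for each of the 6 genes in the 3 comparisons, with its 95% confidence interval from the limma fit. Filled blue points were called at an adjusted p under 0.05 and open grey ones were not, which leaves 5 called genes with the extract, 2 with carnosic acid and 2 between the treatments.

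Other genes that handle NFE2L1 protein were mostly higher with the extract. NFE2L1 is pulled out of the ER membrane by the ATPase VCP, stripped of its sugars by NGLY1 and turned over through the HRD1-SEL1L ligase or BTRC. Of the 9 genes written in this list 7 were tested, and with the extract 6 were called higher and 1 lower, where 21.8% and 16.3% of all genes were. Their median log2 change was 0.45, beside -0.018 over all genes. SEL1L rose by 1.03 ± 0.075 (SE), BTRC by 0.96, OGT, the enzyme that attaches N-acetylglucosamine to cytosolic and nuclear proteins, by 0.51, and VCP by 0.45 (limma adjusted p between 8.90e-07 and 0.000106). NGLY1, the list's lower member HCFC1 and GSK3B are named after their values were seen. NGLY1 was at 7.02 with the extract against 6.57 in untreated cells, a change of 0.44 (adjusted p = 0.00256), and HCFC1 changed by -0.17 (adjusted p = 0.0120), a call lost under median centring (adjusted p = 0.0564).

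With carnosic acid 4 of the 7 genes were called higher, where 12.9% of all genes were, and the other 3 did not pass. The median was 0.25, beside -0.011 over all genes. BTRC rose by 0.57, SEL1L by 0.35, VCP by 0.25 and GSK3B by 0.26 (limma adjusted p = 0.0268), while NGLY1 was at -0.030 (adjusted p = 0.859). Leaving out carnosic acid replicate 1 (adjusted p = 0.110) or 2 (0.0572) ended the call of GSK3B, as did leaving out untreated replicate 2 (0.0909) or 3 (0.0501). With all arrays kept, the GSK3B call was also lost in eBayes without trend (0.0611) and over every row of the array (0.0844). Median centring over the tested genes ended it too (0.0579). Between the treatments 5 were called higher with the extract and 1, HCFC1, lower (-0.29), where 8.24% and 9.07% of all genes were, and NGLY1 differed by 0.47 (adjusted p = 0.00415). VCP was among the 5 (0.20, adjusted p = 0.0219) and lost that call in 8 of 19 alternative fits. Median centring over all rows was among these fits (0.0503). VCP is also counted below with its cofactors and the shuttle proteins.

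Among the relatives and partners of NFE2L1, NFE2L3, a CNC factor with much the same domain plan that is abundant in colon cancer cells, fell: it was at 8.25, 8.43 and 8.54 with rosemary extract, at 9.08, 9.15 and 9.24 with carnosic acid, and at 9.55, 9.64 and 9.81 in untreated cells. These groups did not overlap and ran in the reverse order to those of NFE2L1. The log2 change was -1.26 ± 0.088 (SE) with the extract (limma adjusted p = 6.70e-07), -0.51 with carnosic acid (0.00214) and -0.75 between them (0.000130). MAFG, a small MAF partner of CNC factors, rose by 0.71 (adjusted p = 0.000165) with the extract and by 0.40 (0.0181) with carnosic acid. KEAP1, which tethers NRF2 for degradation, rose by 0.22 (0.0110) and 0.27 (0.00735). The call of MAFG with carnosic acid was lost without untreated replicate 3 (0.0603) or carnosic acid replicate 1 (0.0673), and over every row of the array (0.0578). In all, 2 of the 6 tested genes of this list were called higher and 1 lower in each comparison with untreated cells. Over all genes the shares were 21.8% and 16.3% with the extract, which these counts lie near, and 12.9% and 6.12% with carnosic acid. The list's medians were 0.10 for the extract and 0.070 for carnosic acid.

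The ATPase VCP with its cofactors, and shuttle proteins, carry ubiquitinated substrates to the proteasome. Of 13 tested genes of these groups 9 were called higher with the extract, where 21.8% of all genes were, and the other 4 (UFD1, FAF1, UBXN7 and UBQLN4, named after their values were seen) did not pass, at -0.13 to 0.14. The median was 0.33, beside -0.018 over all genes. UBXN4, a VCP adaptor of the ER membrane, was at 10.39, 10.44 and 10.30 with rosemary extract, at 10.16, 10.10 and 10.14 with carnosic acid, and at 9.76, 9.74 and 9.82 in untreated cells, and no groups overlapped. It rose by 0.61 ± 0.050 (log2, SE) with the extract and by 0.36 with carnosic acid (limma adjusted p = 2.28e-06 and 0.000518). NPLOC4, a cofactor of VCP, rose by 0.55 and 0.37, and the shuttle UBQLN1 by 0.50 and 0.21. VCP itself averaged 11.55 with the extract, 11.35 with carnosic acid and 11.10 in untreated cells.

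With carnosic acid 5 of the 13 were called higher, namely VCP, NPLOC4, FAF2 (0.24, named after its value was seen), UBXN4 and UBQLN1, where 12.9% of all genes were, with a median of 0.12 beside -0.011 over all genes. Leaving out carnosic acid replicate 1 brought that count to 3, and so did leaving out the first or the second untreated array, or fitting every row of the array. The calls lost in each of these fits were those of UBQLN1 (limma adjusted p between 0.0508 and 0.0586) and FAF2 (between 0.0631 and 0.0863). UBQLN1 also lost its call in eBayes without trend (0.0543). Between the treatments 5 of 13 were called higher with the extract, where 8.24% of all genes were. That count fell to 2 without rosemary extract replicate 1 or 2 or carnosic acid replicate 2 or 3, and to 3 without untreated replicate 1. With all 9 arrays kept it was 2 under median centring over all rows, in eBayes without trend and over every row of the array. It was 3 with no filter on dim genes and in a fit of only the arrays compared.

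Of the 3 tested genes of ubiquitin and its activating enzymes 1 was called lower and 0 higher in both comparisons with untreated cells. Over all genes 16.3% were called lower and 21.8% higher with the extract, and 6.12% and 12.9% with carnosic acid. The list's medians were -0.012 and -0.047. UBB and UBA6 did not pass, and the gene called was UBA1, the main activating enzyme. It was at 10.57, 10.56 and 10.55 with rosemary extract, at 10.70, 10.74 and 10.77 with carnosic acid, and at 10.85, 10.91 and 10.84 in untreated cells. The groups lay apart in that order. The log2 change was -0.31 ± 0.041 (SE) with the extract (limma adjusted p = 0.000114) and -0.13 with carnosic acid (0.0449), a call that only leaving out untreated replicate 3 kept (adjusted p = 0.0467) and that leaving out any other array ended (adjusted p between 0.0547 and 0.152). That call was also lost under median centring over all rows (0.199), with the replicate block (0.0603), with no filter on dim genes (0.0514), in a fit of only the arrays compared (0.0927), in eBayes without trend (0.156) and over every row of the array (0.109).

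Of 8 tested proteins that bind the proteasome, 3 were called higher and 1 lower with the extract, where 21.8% and 16.3% of all genes were, with a median of 0.029 beside -0.018. The lower count is near the share over all genes. AKIRIN2, which brings proteasomes into the nucleus, was at 9.16, 9.14 and 8.83 with rosemary extract, at 8.59, 8.51 and 8.59 with carnosic acid, and at 8.33, 8.12 and 8.12 in untreated cells. The groups did not overlap. It rose by 0.85 ± 0.092 (log2, SE, limma adjusted p = 2.01e-05), the redox protein TXNL1 by 0.59 and USP14, a deubiquitinase of the regulatory particle, by 0.33. The small heat shock protein HSPB1 was lower (-0.92, adjusted p = 0.000724). With carnosic acid 2 of the 8 were called higher and 0 lower, where 12.9% and 6.12% of all genes were. The median was -0.023, beside -0.011 over all genes. The genes called were AKIRIN2 (0.37, limma adjusted p = 0.0158) and TXNL1 (0.26, adjusted p = 0.0137). Leaving out carnosic acid replicate 1 ended both calls (0.0594 and 0.0604). AKIRIN2 also lost its call without untreated replicate 2 (0.0612) or 3 (0.0513), and TXNL1 lost its own without carnosic acid replicate 2 (0.0511) or the first untreated array (0.0541). Over every row of the array the AKIRIN2 call was lost as well (0.0555).

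The COP9 signalosome is a relative of the regulatory particle's lid built from similar subunits. With the extract its counts were near the shares over all genes (21.8% higher and 16.3% lower): 2 of 9 genes were called higher, COPS8 (0.38 ± 0.060, log2, SE) and COPS7A (0.25), and 2 lower, COPS3 (-0.32) and GPS1 (-0.30), with a median of 0.027. GPS1 lost its call without rosemary extract replicate 2 (limma adjusted p = 0.0570). With carnosic acid 0 of 9 were called either way (limma, 1 higher and 1 lower at an unadjusted p under 0.05). Over all genes 12.9% were called higher and 6.12% lower with carnosic acid. COPS8 was at 0.19 (adjusted p = 0.0501). COPS8 passed without rosemary extract replicate 3 (0.0402), under median centring over all rows (0.0328) and with the dimmer 50% of genes left out (0.0389). As lower genes COPS3 passed under cyclic loess (0.0445) and GPS1 under median centring over the tested genes (0.0428). Among 10 tested genes of antigen processing and the interferon response, the setting in which the inducible proteasome subunits work, the peptide-trimming enzyme ERAP1 rose (0.49 with the extract and 0.55 with carnosic acid, adjusted p = 0.00168 and 0.00207), its relative ERAP2 fell with the extract (-0.46, adjusted p = 0.00413), the transcription factor IRF1 rose with carnosic acid (0.44, adjusted p = 0.00814), and the medians were 0.039 and 0.011. In all, 1 of the 10 was called higher and 1 lower with the extract, and 2 higher and 0 lower with carnosic acid (limma, 1 lower at an unadjusted p under 0.05), beside shares over all genes of 21.8%, 16.3%, 12.9% and 6.12%.

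**Figure D3:**
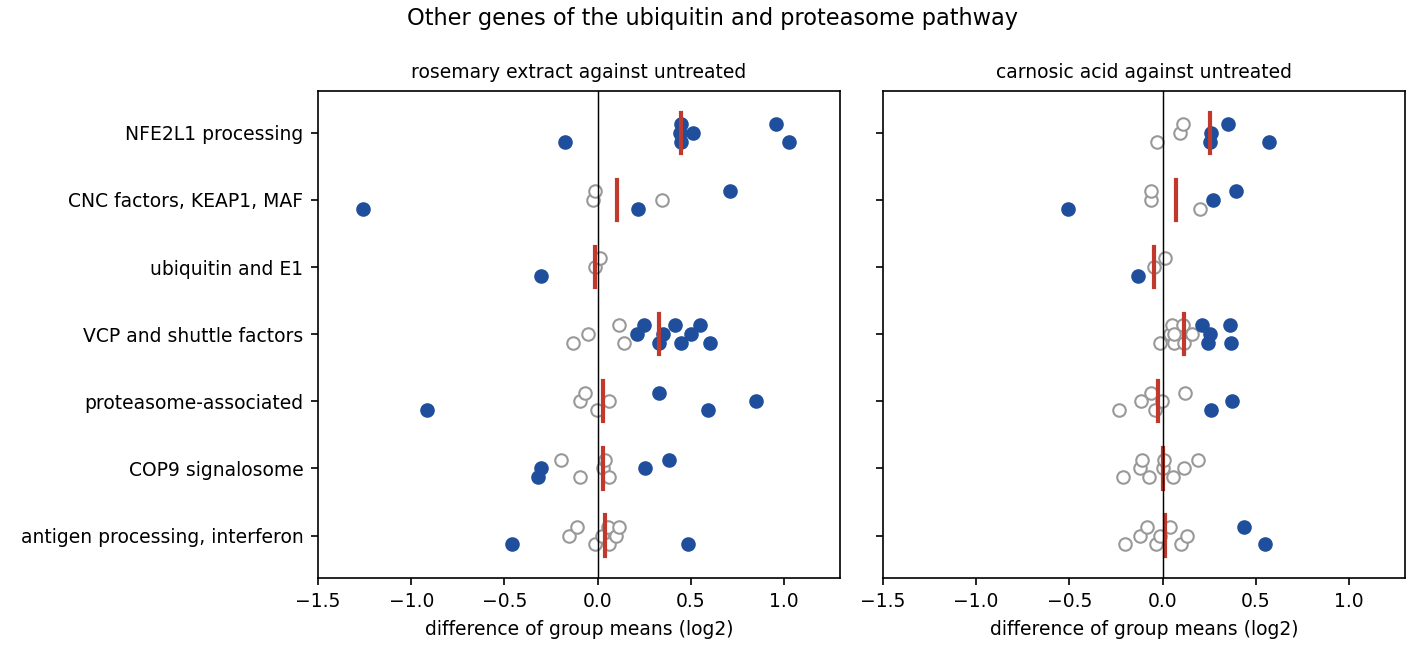
Difference of group means (horizontal axis, log2) of the tested genes in 7 other lists of the pathway, for each treatment against untreated cells. Each point is a gene, filled blue where it was called and open grey where it was not, and the red bar is the list's median, which for NFE2L1 processing stands at 0.45 with the extract and 0.25 with carnosic acid.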

How the data were processed

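RNA of the 9 HT-29 arrays (3 each with rosemary extract, with carnosic acid and untreated) was hybridised to Affymetrix GeneChip 2.0 ST arrays, per the labels' protocols. The authors deposited log2 expression values; RMA and oligo are named in the submitters' processing notes, no version is stated, and the log2 scale was read from the values. RMA compresses large fold changes, gives no detection call and cannot show a shift of all genes. The platform annotation, which can be old, gave 1 symbol to 16098 of 53617 rows, several to 0 and none to 37519. All 16098 Entrez identifiers matched the RefSeq table and 0 symbols changed.

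The brightest row of each of 14884 genes was kept (779 genes had over 1 row), the dimmest 25% (3721 genes, log2 mean under 4.50) were left out, and the other 11163 were fitted with limma 3.58.1 in R 4.3.3 (lmFit, eBayes with trend, 6 residual degrees of freedom, two-sided). Adjusted p-values are Benjamini-Hochberg over the 11163 genes, and a gene was called under 0.05. The fit was tested on simulated data. The number of arrays limits the precision. P-values measure the spread between arrays, and whether separate cultures lie behind them rests on the series text.

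The genes and lists were chosen with earlier results of these data known. Every gene that meets the naming rule is described. Of each pathway list at most 4 genes with the smallest p over the 3 comparisons are named, with exceptions said beside them. Same-numbered arrays of different groups correlated between -0.22 and 0.24 in their deviations from the group means, so the numbers were not taken as pairs. Alternatives changed the scaling, the dim filter, the row per gene, the arrays in the fit, the variance prior, the features adjusted over and the replicate block, or left out 1 array at a time. Centring on the median of the tested genes was chosen after seeing the data.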

Additional observations from a re-analysis of the deposited data

How the results depend on the processing

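With the extract the counts, 3 genes called higher and 2 lower, were kept in every alternative except without rosemary extract replicate 3, where SEM1 made it 4 higher, and between the treatments the count higher was 1 except without that array, where it was 2. The median log2 change of the 6 genes ranged from 0.17 to 0.23 when 1 array was left out for the extract, from 0.0084 to 0.082 for carnosic acid and from 0.036 to 0.066 between the treatments. With carnosic acid the count higher ranged from 1 to 3 and the count lower from 0 to 1 when 1 array was left out. That lower count was 1, from UCHL5, under cyclic loess (adjusted p = 0.0263), with the dimmer 50% of genes left out (0.0396) and under median centring over the tested genes (0.0191). The fit with the replicate block also gave 1 lower (UCHL5, adjusted p = 0.0447), ended or made no other call among the 6 genes, and called 4226 genes for the extract, 2194 for carnosic acid and 1947 between them, against 4256, 2123 and 1933 without it. Centring each array on its median over all rows let POMP pass with carnosic acid (0.0255), as did leaving out the dimmer 50% (0.0355) or averaging the rows of a gene (0.0496). POMP has a single row, so its own change (0.15) was the same in these latter fits as in the main one. Only the other genes of the fit differed there.

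Signs turned only for values near 0. Under median centring over the tested genes the carnosic acid median of the 6 genes was -0.0018, and the split over all genes with carnosic acid was 1207 higher and 1098 lower, against 1440 and 683. Under median centring over all rows, ADRM1 between the treatments was -0.0015, and with carnosic acid ERAP2 was 0.023 and NGLY1 0.0088. With its rows averaged SEM1 with carnosic acid was 0.0050. Leaving out 1 array, ADRM1 between the treatments ranged from -0.016 to 0.036, and with carnosic acid ERAP2 ranged from -0.11 to 0.033 and NGLY1 from -0.088 to 0.040. Causes were not tested. Counts over all genes fell by over 1.5 times when every row of the array was fitted and adjusted over, to 1367 named genes for carnosic acid (355 of them lower) and 1219 between the treatments (514 of them higher), and without carnosic acid replicate 1 (1385 for carnosic acid, 367 of them lower). The number of arrays, 3 a group, limits the precision.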
